A study of Homo sapiens with 9 samples.

Results

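The genes described here were 36 members of the hypoxia response and of glycolysis, found by symbol among the 23610 genes of an expression table for GIST-T1, an established human line of gastrointestinal stromal tumour (GIST) cells. They were kept as 16 genes of the hypoxia-inducible factor (HIF) response and 20 genes of glucose transport and glycolysis, and all 36 were in the table. PolyA RNA had been sequenced in 9 libraries of these cells. The libraries carried a single guide RNA (sgRNA) against HAND1 (3 libraries), an sgRNA against ETV1 (3 libraries) or a control sgRNA against Luciferase, a gene of another organism (3 libraries). ETV1 and HAND1 are transcription factors of this tumour type, and the comparisons ask what differs in the cells when either is targeted. The labels give 1 line, 1 target name a group and no oxygen level, culture time or origin of the replicates, so p-values rest on library-to-library spread that could be technical.

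HIF is made of an oxygen-labile alpha subunit (HIF1A, or EPAS1, also called HIF2A) and the stable partner ARNT. With oxygen, prolyl hydroxylases of the EGLN family mark the alpha subunit for the ubiquitin ligase VHL and for breakdown. When oxygen is low the pair binds the core letters ACGTG or GCGTG and raises genes of angiogenesis, mitochondrial turnover, collagen modification and glycolysis, the pathway that carries glucose through SLC2A transporters, hexokinases, phosphofructokinases and aldolases to pyruvate and lactate. Most glycolytic enzymes are also made in well-oxygenated cells. GIST depends on the receptor kinase KIT, and ETV1 is a lineage factor of its cell of origin, the interstitial cell of Cajal.

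The members' promoters were searched for the letters that HIF binds. Most HIF members were chosen as known HIF targets, so their share is a description only. RefSeq promoters of the assembly GRCh38.p14 matched 32 of the 36 members, and the 250 bases before each start were read. The HIF core, spelled ACGTG or GCGTG on either strand, occurred in 10 of 13 matched HIF members (76.9%) and in 12 of 19 matched glycolysis members (63.2%), beside 43.1% of all 27305 promoters. The letters CATCTG, an E-box of the kind that HAND factors bind, occurred in 0 of 13 HIF and 3 of 19 glycolysis promoters (15.8%), beside 12.2% of all. An ETS site, CCGGAAG, occurred in 1 of 13 (7.69%) and 2 of 19 (10.5%), beside 8.82% of all. CACGTG reads as a HIF core on both strands and was counted on each. Such matches describe letters and are not evidence of binding. The windows of EGLN3 and STC2 are shown because these genes carry differences described further on, and those of LDHA and LDHB because this pair showed a wide gap in level. Capitals mark the HIF core. The windows are EGLN3 (chr14:33951075-33951324, minus strand), STC2 (chr5:173328415-173328664, minus strand), LDHA (chr11:18394313-18394562, plus strand) and LDHB (chr12:21657843-21658092, minus strand).
EGLN3: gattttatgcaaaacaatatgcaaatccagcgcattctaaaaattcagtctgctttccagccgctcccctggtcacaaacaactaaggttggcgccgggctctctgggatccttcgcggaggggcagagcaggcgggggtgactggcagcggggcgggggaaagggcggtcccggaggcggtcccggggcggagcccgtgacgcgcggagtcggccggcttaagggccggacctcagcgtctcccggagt
STC2: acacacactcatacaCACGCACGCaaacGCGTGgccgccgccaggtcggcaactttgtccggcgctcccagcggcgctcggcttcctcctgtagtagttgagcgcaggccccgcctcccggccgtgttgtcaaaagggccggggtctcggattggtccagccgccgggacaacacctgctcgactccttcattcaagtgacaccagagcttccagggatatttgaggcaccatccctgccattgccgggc
LDHA: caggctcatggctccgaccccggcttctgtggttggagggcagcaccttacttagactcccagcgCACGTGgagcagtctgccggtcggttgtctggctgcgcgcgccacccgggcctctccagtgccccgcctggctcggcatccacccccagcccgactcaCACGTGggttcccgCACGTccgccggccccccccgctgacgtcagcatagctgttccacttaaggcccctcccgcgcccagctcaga
LDHB: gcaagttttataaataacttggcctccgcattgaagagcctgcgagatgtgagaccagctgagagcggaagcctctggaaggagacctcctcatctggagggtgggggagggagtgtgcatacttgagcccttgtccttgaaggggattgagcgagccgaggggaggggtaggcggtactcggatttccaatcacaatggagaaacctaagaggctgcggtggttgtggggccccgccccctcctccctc
The STC2 window held 3 matches and the LDHA window 5. No match stood in the EGLN3 and LDHB windows, which says only that these letters are not in these 250 bases.

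Values are FPKM, fragments counted per unit of transcript length and of library size, which lets the levels of different genes be compared. ETV1 itself stood at 40.8, 39.8 and 41.8 FPKM in HAND1 sgRNA libraries, 10.9, 12.03 and 11.2 FPKM in ETV1 sgRNA libraries and 42.2, 39.4 and 37.4 FPKM in Luciferase sgRNA libraries. HAND1 stood at 37.6, 40.8 and 36.5 FPKM in HAND1 sgRNA libraries, 134, 133 and 129.7 FPKM in ETV1 sgRNA libraries and 116, 114 and 114 FPKM in Luciferase sgRNA libraries, so each targeted transcript was lowest in the libraries labelled for it. The GIST markers CD34, KIT, ANO1, GPR20 and PRKCQ averaged 1659, 192, 169, 68.2 and 5.88 FPKM. KIT, GPR20 and PRKCQ averaged 160, 45.1 and 3.67 FPKM in HAND1 sgRNA libraries, against 209, 81.6 and 6.84 FPKM in Luciferase sgRNA libraries. CD34 and ANO1 were not lower there, at 1762 and 170 FPKM against 1680 and 165 FPKM. The 8 blood and endothelial markers and the 7 neural markers each averaged under 1 FPKM. Of 6 epithelial markers KRT18 averaged 225 FPKM, KRT8 averaged 3.27 FPKM, and the other 4 were under 1. No total counts were given, so depth is known only as a ratio. This was the most frequent ratio of low values between each library and Luciferase sgRNA replicate 1, the reference. Depth lay between 0.636 (ETV1 sgRNA replicate 2) and 1 (Luciferase sgRNA replicate 1, by definition). Luciferase sgRNA replicate 3 stood apart from its group. Its transcripts shorter than 1000 bases lay at a median of 0.32 on the log2 scale above the other Luciferase sgRNA libraries, and its sum of FPKM was the highest of the 9.

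Among the HIF factors, HIF1A was the alpha subunit these cells mostly transcribed. Its level was 31.8, 33.1 and 38.8 FPKM in HAND1 sgRNA libraries, 33.5, 34.1 and 34.1 FPKM in ETV1 sgRNA libraries and 35.9, 34.1 and 34.3 FPKM in Luciferase sgRNA libraries. EPAS1 was at 0.870, 1.18 and 0.971 FPKM in HAND1 sgRNA libraries, 1.00, 0.793 and 0.900 FPKM in ETV1 sgRNA libraries and 0.579, 0.940 and 0.817 FPKM in Luciferase sgRNA libraries. HIF1A made up 96.6 to 98.1% of the summed FPKM of HIF1A, EPAS1 and HIF3A in the 9 libraries, and all 3 groups overlapped for HIF1A. HIF activity is set mostly through the alpha protein, which RNA levels do not show.

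The members of highest level among HIF targets were collagen-modifying and mitochondrial genes. PLOD2, a lysyl hydroxylase of collagen, stood at 129, 139.5 and 143 FPKM in HAND1 sgRNA libraries, 129.9, 132 and 125 FPKM in ETV1 sgRNA libraries and 123, 121 and 118 FPKM in Luciferase sgRNA libraries. BNIP3, a mitochondrial outer membrane protein of mitophagy, stood at 41.5, 47.7 and 39.6 FPKM in HAND1 sgRNA libraries, 53.9, 52.7 and 47.9 FPKM in ETV1 sgRNA libraries and 50.2, 50.2 and 62.5 FPKM in Luciferase sgRNA libraries. For PLOD2 every library of both targeted groups lay above the 3 Luciferase sgRNA libraries, and for BNIP3 the 3 HAND1 sgRNA libraries were the lowest of the 9. P4HA2, a subunit of collagen prolyl 4-hydroxylase, stood at 42.0, 43.2 and 41.4 FPKM in HAND1 sgRNA libraries, 42.4, 46.3 and 47.6 FPKM in ETV1 sgRNA libraries and 47.6, 43.8 and 50.8 FPKM in Luciferase sgRNA libraries. Its paralog P4HA1 stood at 41.2, 44.1 and 41.4 FPKM in HAND1 sgRNA libraries, 45.1, 42.6 and 43.0 FPKM in ETV1 sgRNA libraries and 46.8, 45.4 and 46.4 FPKM in Luciferase sgRNA libraries. For both hydroxylase subunits the 3 HAND1 sgRNA values lay below the 3 Luciferase sgRNA values, by a small margin.

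**Figure D1:**
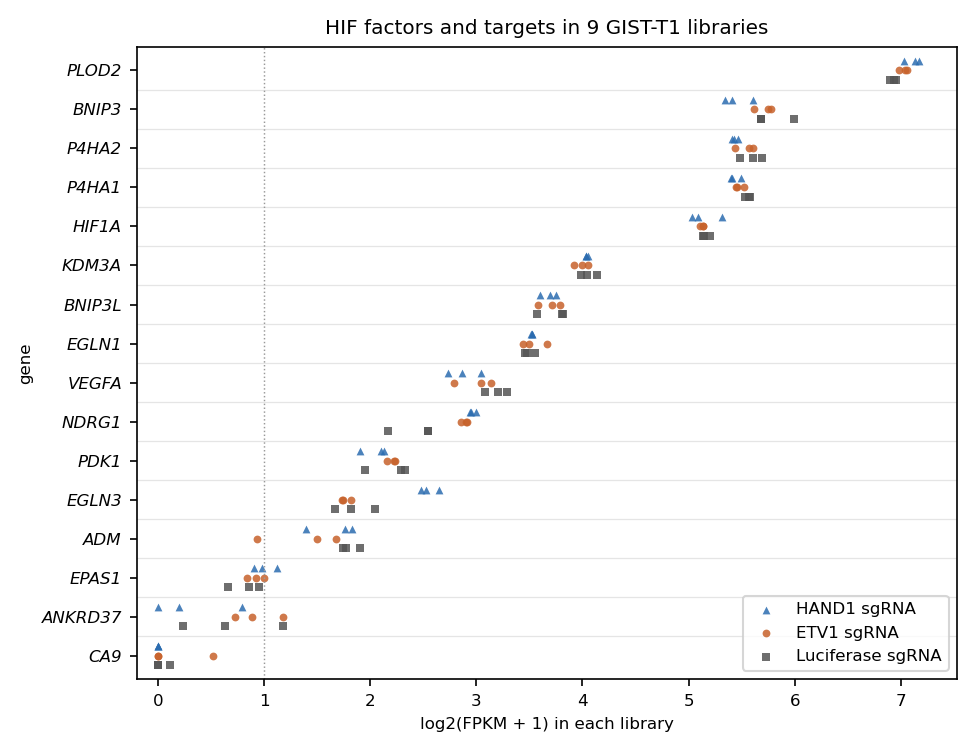
Level as log2(FPKM + 1) of the HIF factors and targets in each of the 9 libraries, by sgRNA target; points are libraries, and the dotted line marks 1 FPKM. PLOD2 stood highest, at a mean of 129 FPKM, and CA9 lowest, at 0.0577 FPKM.

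Some classical hypoxia markers were near the bottom of the range. CA9, a membrane carbonic anhydrase that is among the most used markers of hypoxia, was at 0, 0 and 0 FPKM in HAND1 sgRNA libraries, 0.437, 0 and 0 FPKM in ETV1 sgRNA libraries and 0, 0.0815 and 0 FPKM in Luciferase sgRNA libraries. ANKRD37, an ankyrin repeat protein and direct HIF target, was at 0.151, 0.732 and 0 FPKM in HAND1 sgRNA libraries, 0.856, 0.652 and 1.26 FPKM in ETV1 sgRNA libraries and 0.555, 1.26 and 0.177 FPKM in Luciferase sgRNA libraries. ADM, the vasodilator peptide adrenomedullin, was at 2.40, 1.64 and 2.54 FPKM in HAND1 sgRNA libraries, 2.19, 1.83 and 0.912 FPKM in ETV1 sgRNA libraries and 2.41, 2.75 and 2.36 FPKM in Luciferase sgRNA libraries. CA9 was listed at 0 in most libraries. The ETV1 sgRNA values of ADM lay below its Luciferase sgRNA values, while the groups overlapped for ANKRD37. CA9, ANKRD37 and EPAS1 averaged under 1 FPKM and these 3 were not tested. The remaining HIF members averaged 15.3 FPKM (KDM3A, a histone demethylase), 12.05 FPKM (BNIP3L, the paralog of BNIP3), 10.5 FPKM (EGLN1, the main HIF prolyl hydroxylase), 7.17 FPKM (VEGFA, the angiogenic growth factor), 5.86 FPKM (NDRG1), 3.45 FPKM (PDK1, a kinase that restrains pyruvate dehydrogenase) and 3.29 FPKM (EGLN3).

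Glycolytic enzymes spanned a wider range of levels. GAPDH, which oxidises glyceraldehyde 3-phosphate, stood at 2223, 2254 and 2224 FPKM in HAND1 sgRNA libraries, 2309, 2459 and 2529.7 FPKM in ETV1 sgRNA libraries and 2477, 2443 and 2709 FPKM in Luciferase sgRNA libraries. ALDOA, the main aldolase outside liver and brain, stood at 1294, 1387 and 1338 FPKM in HAND1 sgRNA libraries, 1343, 1399 and 1409.9 FPKM in ETV1 sgRNA libraries and 1366, 1341 and 1404 FPKM in Luciferase sgRNA libraries. GAPDH was lowest in the 3 HAND1 sgRNA libraries and highest in Luciferase sgRNA replicate 3, while the 3 groups overlapped for ALDOA. LDHB, the heart-type subunit of lactate dehydrogenase, stood at 764, 765 and 762 FPKM in HAND1 sgRNA libraries, 784, 799 and 862 FPKM in ETV1 sgRNA libraries and 829.6, 831 and 914 FPKM in Luciferase sgRNA libraries. TPI1, triosephosphate isomerase, stood at 568, 559 and 533 FPKM in HAND1 sgRNA libraries, 549, 565 and 618 FPKM in ETV1 sgRNA libraries and 595, 597 and 665 FPKM in Luciferase sgRNA libraries. In LDHB and TPI1, too, all HAND1 sgRNA values lay below all Luciferase sgRNA values. Together the 20 glycolysis members took 1.34 ± 0.0229% of all FPKM in HAND1 sgRNA libraries, 1.39 ± 0.0491% in ETV1 sgRNA libraries and 1.40 ± 0.0676% in Luciferase sgRNA libraries (SD, n = 3 each). The HAND1 and Luciferase sgRNA shares overlapped through Luciferase sgRNA replicate 3 alone, at 1.33%, whose total FPKM was the highest, while the other Luciferase sgRNA libraries stood at 1.46% and 1.42%, above all HAND1 sgRNA libraries. As plain sums the 20 members came to 6138, 6269 and 6185 FPKM in HAND1 sgRNA libraries, 6305, 6576 and 6799 FPKM in ETV1 sgRNA libraries and 6622, 6591 and 7159 FPKM in Luciferase sgRNA libraries. These sums, which GAPDH and ALDOA dominate, did not overlap between HAND1 sgRNA and Luciferase sgRNA.

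At the low end stood ENO2, PFKFB4, SLC2A3 and PFKFB3. ENO2, the neuronal enolase, was at 0, 0.0447 and 0.0632 FPKM in HAND1 sgRNA libraries, 0.208, 0.0668 and 0.0554 FPKM in ETV1 sgRNA libraries and 0.0851, 0.194 and 0.0533 FPKM in Luciferase sgRNA libraries, and was not tested. PFKFB4, which makes and breaks down fructose 2,6-bisphosphate, the activator of phosphofructokinase, was at 1.39, 1.97 and 2.32 FPKM in HAND1 sgRNA libraries, 2.42, 1.12 and 1.92 FPKM in ETV1 sgRNA libraries and 2.70, 2.27 and 2.17 FPKM in Luciferase sgRNA libraries. SLC2A3, the neuronal-type glucose transporter, was at 1.82, 2.41 and 2.52 FPKM in HAND1 sgRNA libraries, 2.52, 1.84 and 2.66 FPKM in ETV1 sgRNA libraries and 2.72, 2.74 and 2.96 FPKM in Luciferase sgRNA libraries. PFKFB3, the paralog of PFKFB4 that mostly makes the activator, was at 8.94, 8.20 and 8.40 FPKM in HAND1 sgRNA libraries, 7.85, 8.60 and 8.26 FPKM in ETV1 sgRNA libraries and 9.45, 9.25 and 8.85 FPKM in Luciferase sgRNA libraries. SLC2A3 was highest in the 3 Luciferase sgRNA libraries. PFKFB3 was lower in all ETV1 sgRNA libraries than in any Luciferase sgRNA library. Both targeted groups overlapped with Luciferase sgRNA for ENO2 and PFKFB4. Between the extremes ENO1 averaged 499 FPKM, PGK1 215 FPKM, PGAM1 169 FPKM, PFKL 99.3 FPKM, GPI 91.4 FPKM, HK1 73.6 FPKM, ALDOC 54.8 FPKM, PFKP 32.5 FPKM, SLC2A1 29.8 FPKM, LDHA 14.6 FPKM and HK2 10.6 FPKM.

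**Figure D2:**
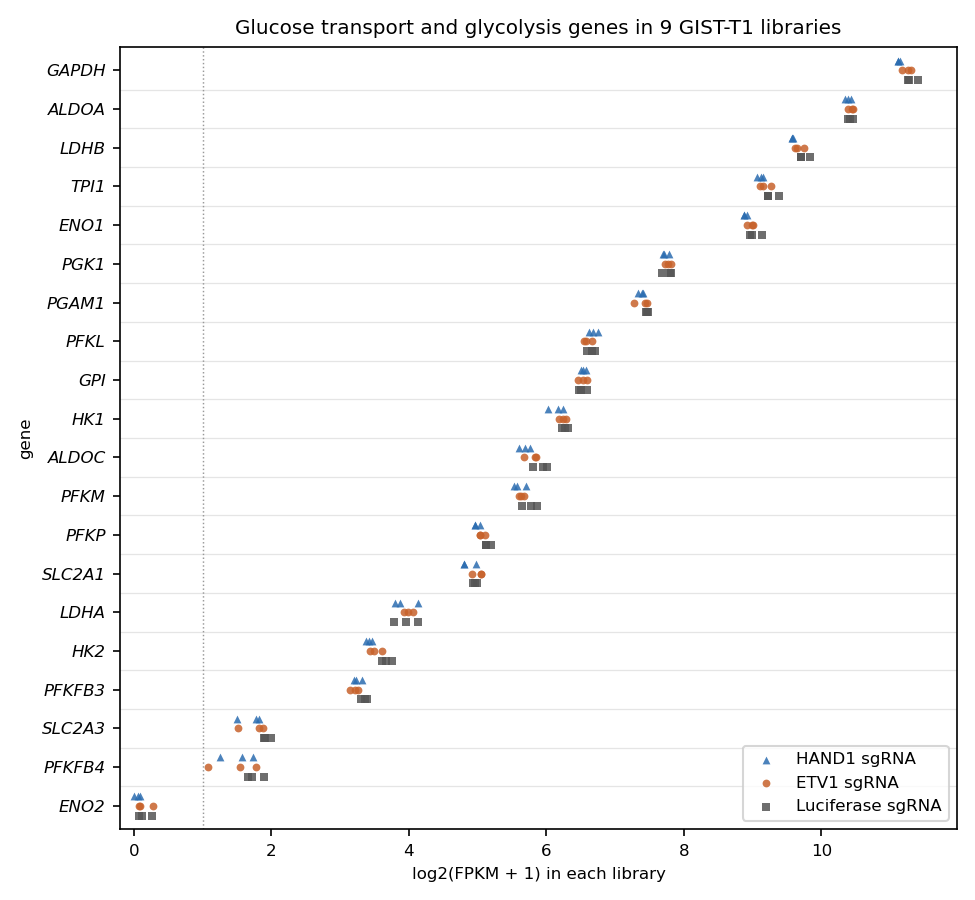
Level as log2(FPKM + 1) of the glucose transporters and glycolytic enzymes in each of the 9 libraries, by sgRNA target; points are libraries, and the dotted line marks 1 FPKM. GAPDH stood highest, at a mean of 2403 FPKM, and ENO2 lowest, at 0.0856 FPKM.

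The choice of isozyme was strongly one-sided at several steps and much the same in all 9 libraries. LDHA, the muscle-type lactate dehydrogenase subunit and a textbook HIF target, was at 12.9, 13.6 and 16.5 FPKM in HAND1 sgRNA libraries, 14.3, 15.6 and 14.8 FPKM in ETV1 sgRNA libraries and 12.7, 14.6 and 16.6 FPKM in Luciferase sgRNA libraries. LDHB thus exceeded LDHA 46.2-fold to 65.3-fold across the libraries and made up 97.9 to 98.5% of the lactate dehydrogenase FPKM. ENO1 took 99.3 to 99.7% of the FPKM of the 3 enolases, ALDOA took 95.7 to 96.5% of the 3 aldolases, and HK1 took 86.2 to 88.5% of its pair with HK2. Phosphofructokinase was more mixed, with PFKL at 52.8 to 58.1%, PFKM at 25.4 to 29.2% and PFKP at 16.5 to 18.9%. Among the prolyl hydroxylases EGLN2 led, at 79.4 to 84.1%. The share of EGLN3 in the summed FPKM of EGLN1, EGLN2 and EGLN3 was 6.48 ± 0.395% in HAND1 sgRNA libraries, against 3.39 ± 0.178% in ETV1 sgRNA libraries and 3.64 ± 0.302% in Luciferase sgRNA libraries (SD, n = 3 each).

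**Figure D3:**
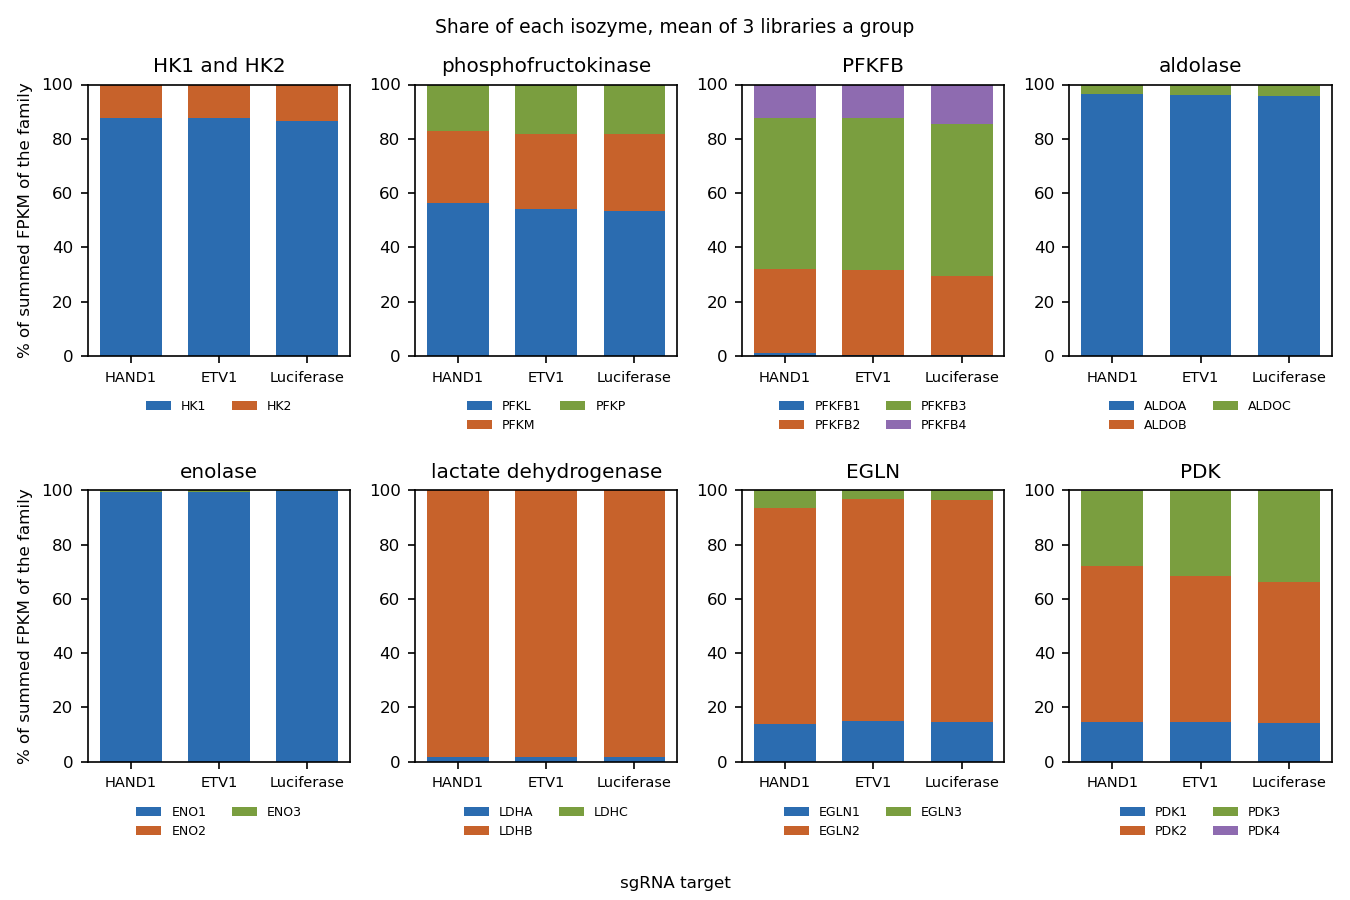
Share of each isozyme in the summed FPKM of its family (percent, stacked bars, mean of 3 libraries a group) for each sgRNA target. For 8 enzyme families, LDHB, ENO1, ALDOA and HK1 filled most of their bars in every group, and EGLN3 took 6.48% in HAND1 sgRNA libraries, against 3.64% in Luciferase sgRNA libraries.

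With HAND1 targeted, EGLN3 and NDRG1 rose and the other tested members were not called. Differences are given as log2(FPKM + 1), first group minus second, which understates the change of low genes. They were tested with limma on the 11348 genes that averaged at least 1 FPKM, with Benjamini-Hochberg adjustment over all of them, and a gene was called when its adjusted p was under 0.05. EGLN3, a prolyl hydroxylase that marks HIF alpha subunits and is itself a HIF target, was at 4.58, 4.74 and 5.27 FPKM in HAND1 sgRNA libraries, against 2.54, 2.18 and 3.13 FPKM in Luciferase sgRNA libraries. All 3 HAND1 sgRNA values lay above all 3 Luciferase sgRNA values. The ratio of the means was 1.86 and the difference 0.70 (SE 0.111, limma adjusted p = 0.00383). NDRG1, a stress-induced protein raised by hypoxia and by differentiation, was at 6.70, 6.67 and 6.96 FPKM in HAND1 sgRNA libraries, against 4.82, 3.50 and 4.84 FPKM in Luciferase sgRNA libraries. These groups did not overlap either, with Luciferase sgRNA replicate 2 the lowest of all. The ratio of the means was 1.55 and the difference 0.54 (SE 0.103, limma adjusted p = 0.0109). Without Luciferase sgRNA replicate 3 both calls stood, at differences of 0.81 for EGLN3 (limma adjusted p = 0.00192) and 0.60 for NDRG1 (limma adjusted p = 0.0106). Leaving out Luciferase sgRNA replicate 2 instead lowered the NDRG1 difference to 0.42, its smallest with a library left out. Over all alternatives the NDRG1 call stood, with a limma adjusted p of up to 0.0499. In RNA from whole cultures, a change in every cell and a change in the number of cells that make a transcript cannot be told apart.

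Of the 13 HIF members tested, 2 were called higher, 0 lower and 11 not at all, beside 6.6% of all tested genes called in this comparison in either direction and 3.67% called higher. By unadjusted p under 0.05 there were 7 of 13, beside 20.3% of all genes. The median difference of the 13 was -0.05, against -0.01 for all genes, and 9 of the 13 were below 0, beside 6112 of all 11348 genes. This median was -0.010 without HAND1 sgRNA replicate 2, -0.096 without HAND1 sgRNA replicate 3, -0.0057 without Luciferase sgRNA replicate 1 and -0.096 without Luciferase sgRNA replicate 2, so its size rests on single libraries. Among the uncalled, all 3 HAND1 sgRNA values were above all Luciferase sgRNA values for PLOD2, with a difference of 0.19 (adjusted p = 0.0682). With a correction for transcript length PLOD2 was called (limma adjusted p = 0.0415). BNIP3 differed by -0.33 (adjusted p = 0.0764) and VEGFA by -0.31 (adjusted p = 0.141). In all, 3 of 13 lay wholly above and 4 wholly below, beside 13% and 12.7% of all genes. Of the 11 uncalled HIF differences 9 were below 0, and the 95% intervals of the 13 differences reached from -0.56 to 0.95.

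None of the 19 tested glycolysis members was called against Luciferase sgRNA, by limma after adjustment, beside 6.6% of all genes. By unadjusted p under 0.05 there were 6 of 19, beside 20.3% of all genes. The differences ran from -0.26 to 0.02 with a median of -0.14, against -0.01 for all genes. They were below 0 in 17 of 19, beside 6112 of all 11348 genes. In 9 of 19 all HAND1 sgRNA values lay below all Luciferase sgRNA values, beside the 12.7% of all genes given above. HK2, the inducible hexokinase and a HIF target, came nearest to a call. Its levels were 9.73, 9.40 and 10.03 FPKM in HAND1 sgRNA libraries, against 11.7, 11.2 and 12.5 FPKM in Luciferase sgRNA libraries, a difference of -0.26 (95% interval -0.41 to -0.10, adjusted p = 0.0587). The fructose-handling enzymes ALDOC and PFKP differed by -0.23 (adjusted p = 0.0939) and -0.16 (adjusted p = 0.0984). The abundant GAPDH and LDHB differed by -0.19 (adjusted p = 0.257) and -0.17 (adjusted p = 0.202), and with quantile normalization by -0.079 (adjusted p = 0.791) and -0.014 (adjusted p = 0.962). The 95% intervals of the 19 reached from -0.65 to 0.21, and differences of the size of the median were not detectable gene by gene. Luciferase sgRNA replicate 3 held the highest of the 9 values in 12 of the 19 members, and without it the median was -0.11, with 16 of 19 below 0. With quantile normalization the median of the 19 was also -0.079, and 14 of 19 were below 0.

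**Figure D4:**
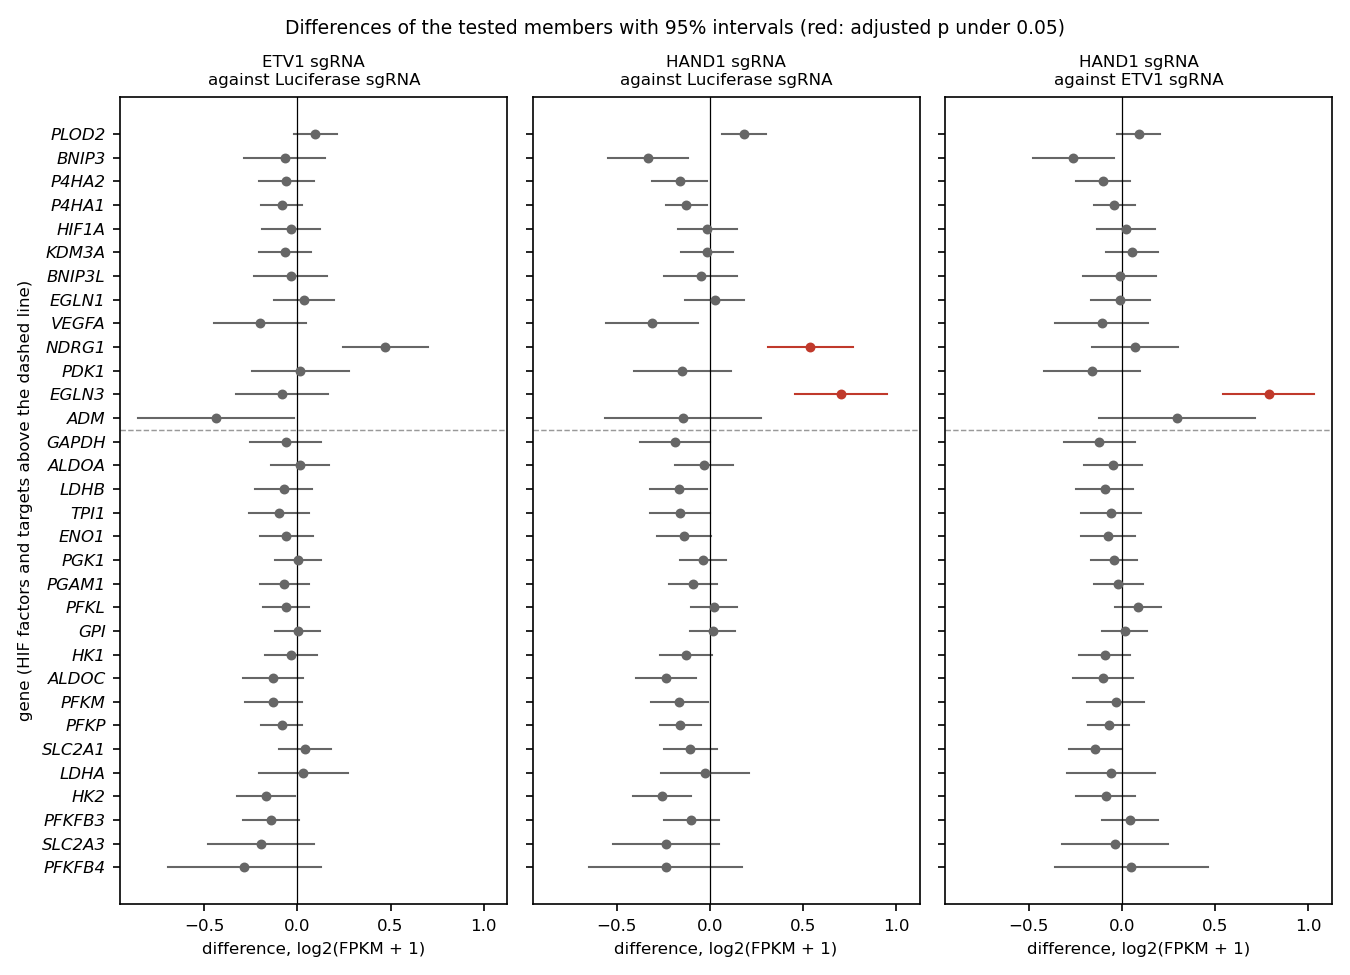
Difference in log2(FPKM + 1) with its 95% interval for each tested member in the 3 comparisons; red points were called at an adjusted p under 0.05. With HAND1 sgRNA against Luciferase sgRNA, EGLN3 (0.70) and NDRG1 (0.54) were called, while the glycolysis members lie between -0.26 and 0.02. In that comparison the intervals, which are not adjusted, exclude 0 for 7 of 13 HIF members and 6 of 19 glycolysis members. Of all genes, 20.3% had an unadjusted p under 0.05, which is the same rule.

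With ETV1 targeted, no member was called. This held for 0 of 13 HIF members and 0 of 19 glycolysis members, beside 0.203% of all genes (23 genes), so few calls that none among the members says little. By unadjusted p under 0.05 there were 2 HIF members, NDRG1 and ADM, and 1 glycolysis member, HK2, beside 8.2% of all genes. NDRG1 was at 6.47, 6.24 and 6.53 FPKM in ETV1 sgRNA libraries, against 4.82, 3.50 and 4.84 FPKM in Luciferase sgRNA libraries. The groups did not overlap, and the difference was 0.47 (SE 0.103, limma adjusted p = 0.190). EGLN3, at 2.32, 2.35 and 2.53 FPKM in ETV1 sgRNA libraries, overlapped its Luciferase sgRNA values (difference -0.08, adjusted p = 0.908). HK2 was at 9.79, 11.2 and 10.3 FPKM in ETV1 sgRNA libraries and differed by -0.17 (adjusted p = 0.570). The median difference was -0.06 over the HIF members and -0.07 over the glycolysis members, against -0.01 for all genes. The HIF median became -0.037 when ETV1 sgRNA replicate 3 was left out, and -0.025, -0.10 and 0.0016 when Luciferase sgRNA replicate 1, 2 or 3 was, in that order. Leaving out ETV1 sgRNA replicate 1 or 3 gave a glycolysis median of -0.046 or -0.11, and leaving out Luciferase sgRNA replicate 3 gave -0.032. Of the glycolysis members 14 of 19 were below 0, beside 6022 of all 11348 genes. In 4 of the 19 all ETV1 sgRNA values lay below all Luciferase sgRNA values, beside 6% of all genes. The 95% intervals of the 19 glycolysis members reached from -0.70 to 0.27. Both sets of differences use the same Luciferase sgRNA libraries, so likeness between them is not independent.

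Between the targeted groups, EGLN3 was the 1 member called. It was 2.03 times as high in HAND1 sgRNA libraries as in ETV1 sgRNA libraries, a difference of 0.79 (SE 0.111, limma adjusted p = 0.00282), with no overlap. This was 1 of 13 HIF members, beside 4.05% of all genes called in either direction and 2.01% called higher. NDRG1, by contrast, differed by 0.07 between these groups (95% interval -0.16 to 0.30, adjusted p = 0.828). No glycolysis member of 19 was called by limma. Their differences ran from -0.14 to 0.08 with a median of -0.06 (-0.034 without ETV1 sgRNA replicate 3), and 1 had an unadjusted p under 0.05, beside 15.4% of all genes.

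**Figure D5:**
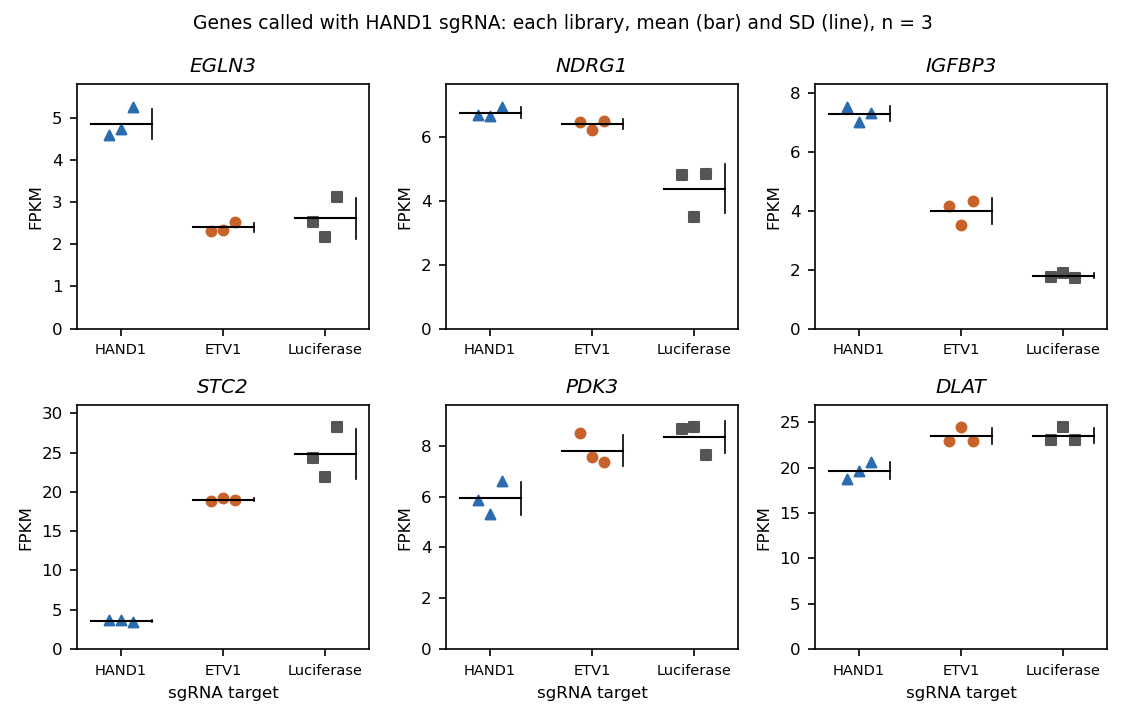
FPKM in each library, by sgRNA target, of the called members EGLN3 and NDRG1 and the other called pathway genes; points are libraries, bars their means and vertical lines the SD. EGLN3 stands apart in HAND1 sgRNA libraries, NDRG1 is higher in both targeted groups than in Luciferase sgRNA libraries, and STC2 is lowest in HAND1 sgRNA libraries.

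A further 89 genes of the same pathways were read for context, of which 62 averaged 1 FPKM or more. STC2 and IGFBP3 were known to differ in these libraries when that list was drawn up, so their calls are not independent evidence of a direction. STC2, stanniocalcin 2, a secreted glycoprotein induced by hypoxia and by endoplasmic reticulum stress, was at 3.70, 3.69 and 3.48 FPKM in HAND1 sgRNA libraries, against 18.8, 19.2 and 18.9 FPKM in ETV1 sgRNA libraries and 24.3, 21.9 and 28.2 FPKM in Luciferase sgRNA libraries. It fell by 2.47 on the log2 scale against Luciferase sgRNA (SE 0.0841, limma adjusted p = 2.07e-07). Against ETV1 sgRNA it fell by 2.11 (limma adjusted p = 5.06e-07). IGFBP3, a carrier of insulin-like growth factors, was at 7.52, 7.02 and 7.31 FPKM in HAND1 sgRNA libraries, 4.15, 3.50 and 4.33 FPKM in ETV1 sgRNA libraries and 1.76, 1.88 and 1.71 FPKM in Luciferase sgRNA libraries. The 3 groups were fully separated. IGFBP3 rose by 1.57 with HAND1 targeted (adjusted p = 6.65e-06) and by 0.84 with ETV1 targeted (adjusted p = 0.00306), and was higher by 0.73 in HAND1 sgRNA than in ETV1 sgRNA libraries (adjusted p = 0.00121).

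Of 16 tested genes of pyruvate and lactate handling, 2 fell with HAND1 targeted, beside the 6.6% of all genes called in this comparison. PDK3, a kinase that switches off pyruvate dehydrogenase and is itself raised by HIF, was at 5.86, 5.33 and 6.61 FPKM in HAND1 sgRNA libraries, against 8.68, 8.73 and 7.63 FPKM in Luciferase sgRNA libraries, a difference of -0.43 (adjusted p = 0.0198). DLAT, the acetyltransferase subunit of pyruvate dehydrogenase itself, was at 18.8, 19.7 and 20.6 FPKM in HAND1 sgRNA libraries, against 23.1, 24.4 and 23.0 FPKM in Luciferase sgRNA libraries, a difference of -0.25 (adjusted p = 0.0302). The enzyme subunit and its inhibitor thus went the same way. Against ETV1 sgRNA libraries, at 22.9, 24.4 and 23.0 FPKM, DLAT differed by -0.24 (adjusted p = 0.0450), a call kept in 7 of 20 alternatives and lost without any single library other than Luciferase sgRNA replicate 3 (adjusted p = 0.0602 to 0.163). DLAT overlaps PIH1D2 on the other strand, and the library kit did not keep strand. The call of PDK3 against Luciferase sgRNA was lost without HAND1 sgRNA replicate 1 or 2 or Luciferase sgRNA replicate 1 or 2 (adjusted p = 0.0652 to 0.0779). That of DLAT was lost without the same libraries (adjusted p = 0.0600 to 0.111).

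The regulators of HIF that are not members, and the other glycolysis genes, gave no calls in the 3 comparisons, by limma. These were 6 tested genes of the HIF system (among them VHL, ARNT and EGLN2) and 13 other glycolysis genes. Of all genes, 6.6% were called with HAND1 targeted, 0.203% with ETV1 targeted and 4.05% between the targeted groups. Among so few genes, the absence of calls says little. An unadjusted p under 0.05 was found for 1 of 6 HIF system genes and 0 of 13 glycolysis genes with HAND1 targeted, for 1 of 6 and 0 of 13 with ETV1 targeted, and for 0 of 6 and 0 of 13 between the targeted groups, beside 20.3%, 8.2% and 15.4% of all genes. Of 27 other HIF targets tested, 1 rose (IGFBP3), 1 fell (STC2) and 25 were uncalled with HAND1 targeted, beside 6.6% of all genes called. IGFBP3 and STC2 were known to differ in these libraries when the list was drawn up, so this count cannot be read against that share. An unadjusted p under 0.05 was found for 12 of the 27, both of these included, beside 20.3% of all genes. The median difference of the 27 was -0.08, against -0.01 for all genes. With ETV1 targeted, IGFBP3 was the 1 gene of the 62 called, beside 0.203% of all genes. It had been listed with its difference known, so this count is a description only. Some member values may hold reads of near-identical copies, or lack reads given to those copies. By name, the GENCODE annotation lists 62 pseudogenes of GAPDH, 39 of BNIP3, 13 of PGAM1, 6 of LDHA and 3 of LDHB. NDRG1, STC2 and IGFBP3 have none and EGLN3 has 1.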

How the data were processed

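PolyA RNA of 9 GIST-T1 libraries was prepared with a non-stranded kit, per the labels' protocols. Reads were handled with STAR and Cufflinks on hg19 (no versions given), per the submitters' processing notes, and neither the annotation nor the library scaling is stated there. The authors deposited 1 table of FPKM values for 23610 genes, with no counts. Values under 1e-06 were read as 0. Computed here were log2(FPKM + 1) values, tested with limma 3.58.1 in R 4.3.3. The model had 1 mean a group over all 9 libraries, with 6 residual degrees of freedom, an intensity trend and Benjamini-Hochberg adjustment over the 11348 genes averaging at least 1 FPKM, and was tested on simulated data. Depth per library is known only as a ratio, so no counting intervals are given. Groups and replicate numbers came from sample titles. The members and lists were chosen with earlier results of these data known. Values in every library were given for called members and for the 4 highest and 4 lowest members of each kind. HIF1A, LDHA and HK2 were added after their values were seen. Uncalled differences were named for some members, not all of them near the threshold. Of the other pathway genes, called ones were named. Alternatives were other pseudocounts, filters, scalings, variance models, a replicate block, a transcript length correction and leaving out each library. Promoters came from RefSeq. Symbols turned into dates by a spreadsheet (28) were not members.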

Additional observations from a re-analysis of the deposited data

How the results depend on the processing

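EGLN3 and NDRG1 kept their HAND1 sgRNA against Luciferase sgRNA calls in all alternatives that tested them, 19 for EGLN3 (adjusted p = 0.000352 to 0.0230) and 20 for NDRG1 (adjusted p = 0.00148 to 0.0499). EGLN3 averages under 5 FPKM and was not tested with a filter of at least 5 FPKM, which left 1 called HIF member against Luciferase sgRNA and 0 against ETV1 sgRNA, and 0 other pathway genes for ETV1 against Luciferase sgRNA. Weighting libraries by their quality called 45 genes for ETV1 against Luciferase sgRNA, among them 1 HIF member (NDRG1, 0.60, adjusted p = 0.0387) and 2 other pathway genes, and 1312 for HAND1 against Luciferase sgRNA, among them 4 HIF members, 1 glycolysis member (ALDOC) and 10 other pathway genes. For HAND1 against Luciferase sgRNA, the HIF members added by library weights were PLOD2 (0.18, limma adjusted p = 0.0281) and BNIP3 (-0.27, limma adjusted p = 0.0450). The transcript length correction called 3 HIF members there, adding PLOD2 (0.17, limma adjusted p = 0.0415). Fitting only ETV1 and Luciferase sgRNA libraries called 14 genes, against 23. Leaving out 1 library at a time gave 11 to 26 genes for ETV1 against Luciferase sgRNA, 433 to 730 for HAND1 against Luciferase sgRNA (2 to 5 of them other pathway genes) and 271 to 583 for HAND1 against ETV1 sgRNA. The uncalled EGLN3 difference between ETV1 and Luciferase sgRNA turned to 0.023 with library weights (adjusted p = 0.956) and to 0.019 without Luciferase sgRNA replicate 3 (adjusted p = 0.969), in a range of -0.17 to 0.019 over libraries left out, and the cause was not tested. The HIF median for ETV1 against Luciferase sgRNA moved to 0.0017 with library weights, and that for HAND1 against ETV1 sgRNA to 0.011 with median centring. DLAT kept its call against Luciferase sgRNA in 14 of 20 alternatives and against ETV1 sgRNA in 7 of 20.

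Replicate numbers did not pair the libraries. Residuals of same-numbered libraries correlated between -0.146 and 0.138, over 0.1 in 2 of 9 pairs, and a library matched its own number best in 7 of 18 cases. With a replicate block, 16 genes were called for ETV1 against Luciferase sgRNA, 632 for HAND1 against Luciferase sgRNA and 364 for HAND1 against ETV1 sgRNA. Under the block 1 glycolysis member was called, ALDOC in HAND1 against Luciferase sgRNA (adjusted p = 0.0289), the counts of HIF members were as reported, and DLAT lost its call against ETV1 sgRNA (adjusted p = 0.0691), which left 2 other pathway genes called there. Without total counts, the depth behind each value is unknown, which limits most the members near 1 FPKM.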
